A study of Homo sapiens with 36 samples.

Results

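EA.hy926 cells exposed for 6 weeks to 100 nM perfluorooctanoic acid (PFOA) were compared with cells exposed for the same time to 10 nM PFOA. Both groups were exposed, and the comparison itself holds no vehicle control. The 6 libraries were chosen from 36 by dose and time, with 3 biological replicates at 10 nM and 3 at 100 nM. The other libraries used here are 3 at 6 weeks with vehicle (0.05% DMSO), 3 at 6 weeks with 1 nM, and the 12 of the matching groups at 12 weeks. The line is labelled wild type, it was grown in medium with serum and HAT supplement, and long-exposure cells were taken at passage, per the labels' protocols. EA.hy926 is a single established line made by fusing umbilical vein endothelial cells with a lung carcinoma line. The labels call the replicates biological but do not say that each had its own flask throughout, so p-values measure the spread between these libraries, which may be technical.

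PFOA is a fluorinated carboxylic acid that resists degradation and binds to proteins that carry fatty acids. Its best described receptor is PPAR-alpha, a nuclear receptor that switches on genes of fatty acid transport and oxidation. Endothelial cells line blood vessels, where they set the tone of the wall, coagulation and the entry of leukocytes. The comparison asks whether the higher of the 2 doses gave a different transcriptome after the same time.

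At 6 weeks recovered reads ran from 18393069 to 18880507 per library in the 10 and 100 nM groups, and 14581 to 14704 genes had a read in each of them. Of 13 endothelial markers 12 had a mean of at least 10, while KDR, the main VEGF receptor, ran from 0 to 4.59. The keratins KRT7, KRT8 and KRT18 were abundant too, while KRT19 had means of 3.44 at 10 nM and 4.51 at 100 nM. Of 8 epithelial markers 5 passed the same level, but CDH1 was at 0 in all 12 libraries at 6 weeks. None of the 5 measured leukocyte markers had a mean of at least 10. In such bulk libraries fewer cells of a kind and less RNA per cell cannot be told apart. In the 1 nM group replicate 1 stood apart from its 2 partners, with 11.4% of its reads in ribosomal protein genes against 18.6% and 19.2%.

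No gene passed the test between the doses. Of 12201 tested genes 0 passed at an adjusted p under 0.05 (0.0%) by limma, a linear model with a shared variance prior, fitted to all 12 libraries at 6 weeks. The smallest Benjamini-Hochberg adjusted p from limma was 0.999. Without adjustment 14 genes (0.115%) had a limma p under 0.05, of which 9 were higher and 5 lower at 100 nM. Of those 14 only UMAD1 had a mean of at least 50. edgeR and DESeq2 on recovered reads also called 0 genes, with 16 and 17 at an unadjusted p under 0.05.

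The values of the doses overlapped for most genes. All 3 libraries at 100 nM lay on one side of all 3 at 10 nM for 485 genes (3.98%), of which 226 (1.85%) were higher and 259 (2.12%) lower at 100 nM. With 3 against 3 libraries the smallest possible two-sided exact permutation p is 0.1, so a lack of overlap alone does not show a difference. Fold changes below are log2 differences, 100 nM minus 10 nM, on log2(value + 1), with their standard error (SE). The median fold change was -0.01, with quartiles of -0.20 and 0.20, and 46 genes lay beyond 2-fold. The median SE was 0.39. For 5430 genes (44.5%) the 95% interval of the fold change lay within 2-fold in both directions, so for those a larger difference is outside the interval. For the others the interval reached beyond 2-fold in at least 1 direction.

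**Figure D1:**
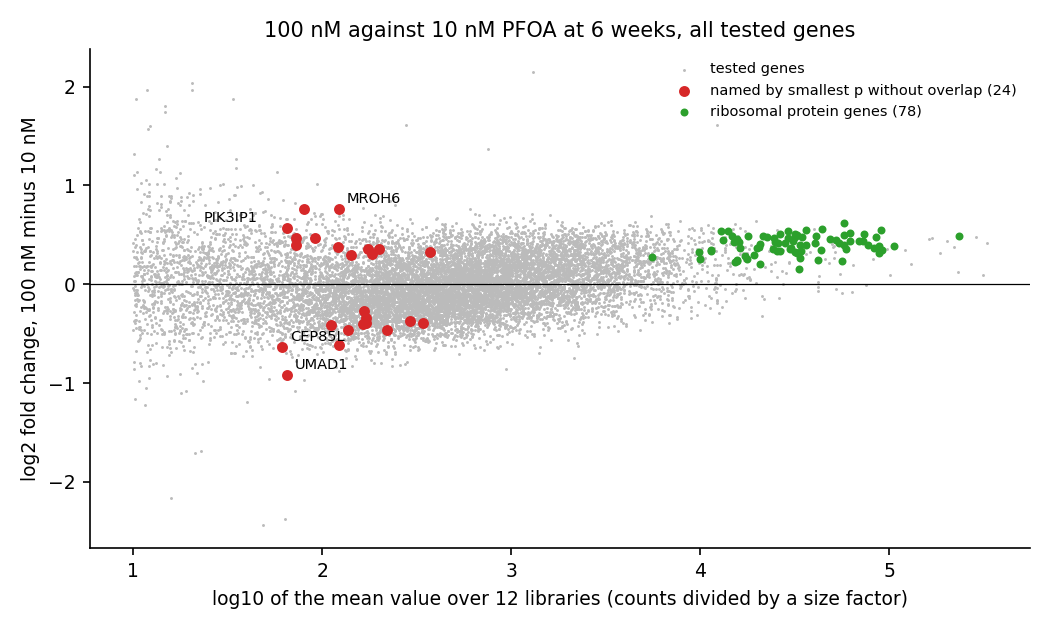
Each grey point is 1 of 12201 tested genes, with the log10 mean value over the 12 libraries at 6 weeks on the x axis and the log2 fold change, 100 nM minus 10 nM, on the y axis. The points centre on 0, the 24 named genes in red lie within 1 log2 unit, and the 78 ribosomal protein genes in green lie at high levels and slightly above 0.

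Groups outside the comparison, which share in the estimate of the spread, varied more than those compared. The median SD of log2 values within a group was 0.261 at 10 nM and 0.225 at 100 nM, but 0.504 for vehicle and 0.733 at 1 nM. Fitted on only the 6 libraries compared, limma called 0 genes, with 126 (1.03%) at an unadjusted p under 0.05 and a smallest adjusted p of 0.718. On those same 6 libraries edgeR and DESeq2 called 0 genes, with 147 and 221 at an unadjusted p under 0.05. Of the settings run, only library quality weights gave calls. With weights limma called 5119 genes, 2773 higher and 2346 lower, but the estimation of the weights stopped early and they ran from 0.0458 to 97.7. Both extremes were 1 nM libraries. In the libraries compared the weights were 0.401, 0.544 and 13.5 at 10 nM and 0.940, 4.98 and 0.506 at 100 nM. The weighted comparison thus leaned mostly on 1 library in each group. Weights estimated gene by gene, an alternative chosen after seeing the data, ran from 0.0866 to 13.1 and gave 3622 genes, 1922 higher and 1700 lower.

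Among genes with no overlap, UMAD1 had the smallest p of those lower at 100 nM. UMAD1 (chr7:7640752-7879223 in the RefSeq annotation of GRCh38.p14) encodes a protein with a domain shared with subunits of the ESCRT sorting machinery. Its normalised read counts were 90.9, 97.3 and 108 at 10 nM and 55.3, 52.4 and 47.3 at 100 nM, beside 43.6, 49.3 and 64.7 with vehicle. The 100 nM libraries lay within the range of vehicle, and the 10 nM libraries above it. The fold change was -0.92 ± 0.38 (95% interval -1.74 to -0.10), with a limma p of 0.0307 before and 0.999 after adjustment. UMAD1 overlaps RPA3, a subunit of the single-stranded DNA binding complex, and strand use in the counting is not given in the sources used here. RPA3 itself had a fold change of 0.33 ± 0.29.

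PIK3IP1 led the genes that were higher at 100 nM. It encodes a membrane protein that restrains PI3K signalling and lies at chr22:31281593-31292534. Its counts were 50.2, 59.0 and 57.4 at 10 nM, 86.7, 94.0 and 69.6 at 100 nM and 71.1, 36.2 and 71.8 with vehicle. Its fold change was 0.57 ± 0.30, with a limma p of 0.0813 before adjustment. The lowest library at 100 nM was just below the 2 highest with vehicle.

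ZNF419, a zinc finger protein at chr19:57487750-57496098, had 168, 163 and 160.0 at 10 nM and 196, 210.4 and 224 at 100 nM, a fold change of 0.36 ± 0.21. Vehicle libraries held 205, 233 and 194, so for this gene the 10 nM group was the one apart. VAV3, a guanine nucleotide exchange factor, had 61.5, 44.2 and 42.1 at 10 nM and 65.2, 63.2 and 75.1 at 100 nM, a fold change of 0.47 ± 0.31. PPP1R3E, which targets protein phosphatase 1 to glycogen, had a fold change of 0.31 ± 0.21. ACYP1, an acylphosphatase, had 0.33 ± 0.24, and COA5, an assembly factor of cytochrome c oxidase, had 0.36 ± 0.27. For the homeobox gene MEIS3 it was 0.76 ± 0.59 and for MROH6 0.76 ± 0.55, each with a wide error. The kinase gene CDK3 had 0.40 ± 0.32. Reads of the remaining 3 could be shared with another gene. SMIM19 overlaps SLC20A2 and had 0.47 ± 0.28, BRF2, a subunit of an RNA polymerase III initiation factor, overlaps ADGRA2 and had 0.30 ± 0.23, and the Golgi pH regulator GPR89B, which has the near copy GPR89A, had 0.38 ± 0.28.

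Genes lower at 100 nM included PPP1R16B, a regulatory subunit of protein phosphatase 1 that is enriched in endothelium. Its counts were 126, 140.0 and 139 at 10 nM and 124, 111 and 74.2 at 100 nM, a fold change of -0.41 ± 0.24. FTO, an RNA demethylase, had 381, 478 and 443 at 10 nM and 376, 338 and 281 at 100 nM, a fold change of -0.39 ± 0.26. The groups of these genes did not overlap, but their gaps were small beside the SE. The ubiquitin ligase RNF217 had -0.39 ± 0.26, the sugar transporter family member SLC35E3 -0.34 ± 0.24, and the F-box gene FBXO33 -0.40 ± 0.31. C2CD3, needed for centriole elongation, had -0.38 ± 0.28 and CEP85L, a centrosomal protein, -0.64 ± 0.49. RAB11FIP2, an effector of recycling endosomes, had -0.61 ± 0.47. SLC30A7, a zinc transporter of the Golgi, overlaps DPH5 and had -0.47 ± 0.32. SNX25, a sorting nexin, overlaps CFAP97 and LRP2BP and had -0.46 ± 0.36.

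IFIT3, an interferon-induced antiviral gene, was the 1 gene under the naming rule whose 2 doses lay on opposite sides of every vehicle library. Its counts were 165, 163 and 171 with vehicle, 174, 177 and 178 at 10 nM and 146, 161 and 134 at 100 nM. The fold change was -0.27 ± 0.21, with a limma p of 0.221 before adjustment. It overlaps LIPA, a lysosomal lipase gene, whose fold change was -0.34 ± 0.43. None of these 24 genes, 12 higher and 12 lower with IFIT3 among them, passed. For 18 of them, 9 higher and 9 lower, the mean at 100 nM lay between those of vehicle and 10 nM, beside 83.2% of all genes.

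**Figure D2:**
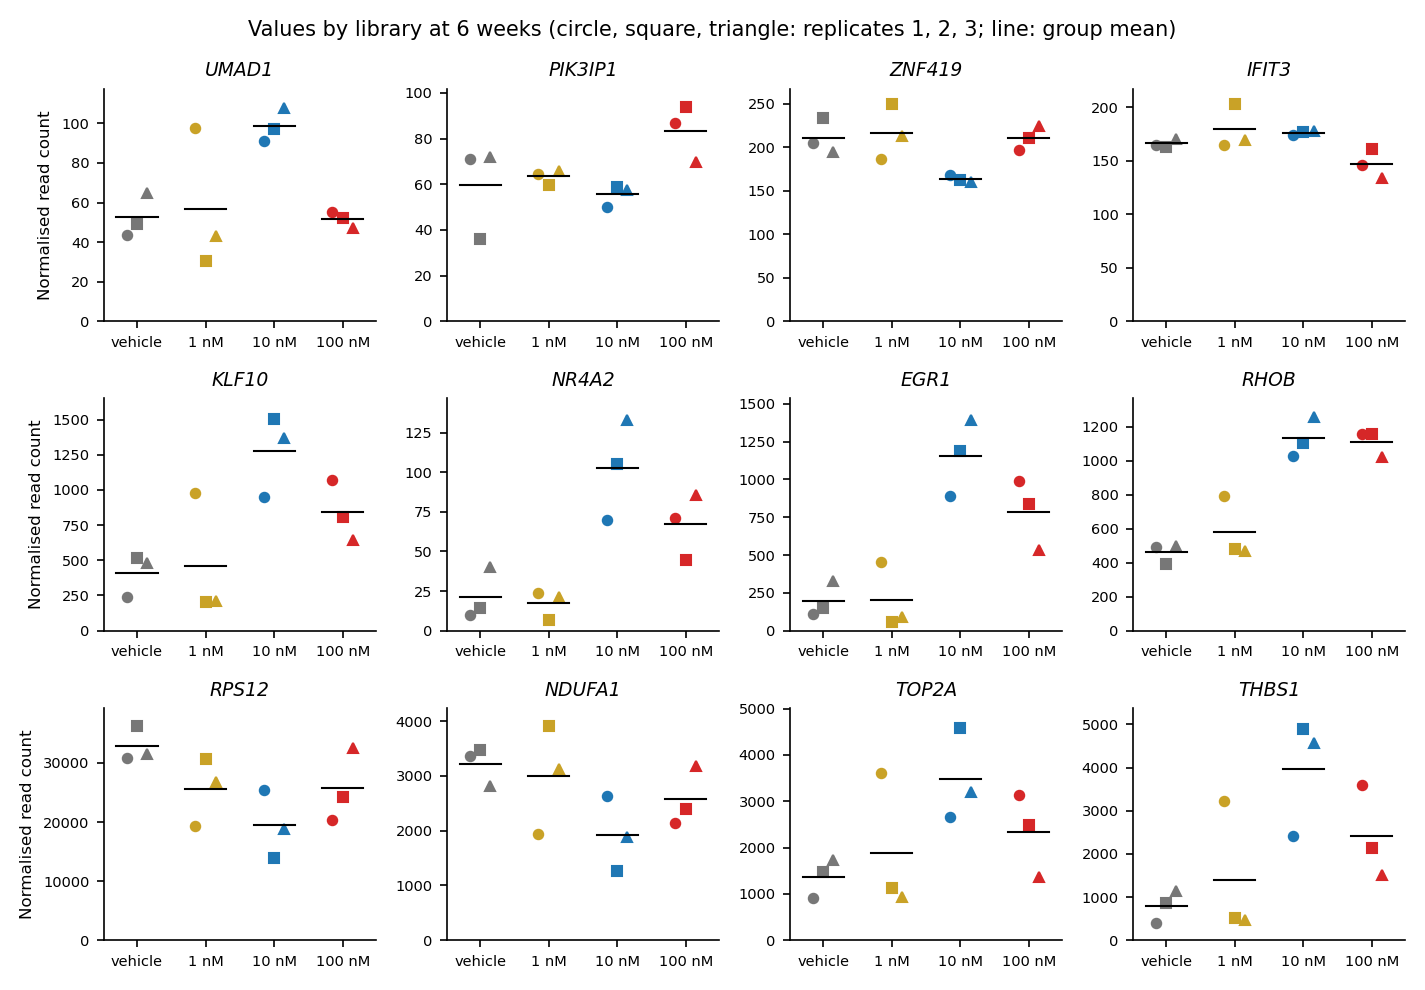
Normalised read counts of 12 genes in each library at 6 weeks, on y axes that start at 0, by dose on the x axis, with symbols for the 3 replicates and a line at the group mean. UMAD1, PIK3IP1, ZNF419 and IFIT3 are separate at 10 and 100 nM, while the other 8 genes overlap between the 2 doses.

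The median absolute fold change was larger for either dose against vehicle than between the doses. Both distances use the same 3 vehicle libraries, so they are given only side by side. Against vehicle 4590 genes lay beyond 2-fold at 10 nM and 2599 at 100 nM, and the median absolute fold change was 0.785 and 0.601. Between the doses that median was 0.203. The mean of log2 values at 100 nM lay between those of vehicle and 10 nM for 10150 of 12201 genes (83.2%). For 1547 (12.7%) the 10 nM mean was the middle one, and for 504 (4.13%) vehicle lay between the doses. The order of these 2 doses was thus not the order of their distances from vehicle for most genes, but the difference between the doses passed for no gene. The 1 nM group was not part of this order, and its replicates lay far apart. In ribosomal protein share its replicate 1, at 11.4%, was in the range of the 10 and 100 nM libraries. Its replicates 2 and 3, at 18.6% and 19.2%, were in that of vehicle. Genes share the same libraries and move together, as the first principal component described below held 83.8% of their variance. The number of genes in an order is thus not a number of separate observations, and the order itself was not tested.

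Gene lists are described by the sign of their members' fold changes and by their median, beside 5978 positive and 6223 negative fold changes among all tested genes. Members of a list share the same 6 libraries, so their signs are not independent. No member of the 28 lists passed or had an unadjusted limma p under 0.05. Of 747 tested genes in any list 25 (3.35%) did not overlap between the doses, near the 3.98% of all genes. The median fold change was above 0 in 10 lists and below 0 in 18, and beyond 0.20 in size in 4. In 13 lists the median kept its sign under all 16 alternative settings of the limma fit. That is a weak check, as several settings leave a difference of group means as it is or nearly so. These are the replicate block, the fit on only the groups compared and the other pseudocounts. All 16 also reuse the same libraries.

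Ribosomal protein genes, which encode the protein part of the cytosolic ribosome, had the highest list median at 0.41. All 78 had a positive fold change, from 0.15 to 0.62, and 0 of 78 were without overlap. RPS12 had 25463, 13943 and 18838 at 10 nM and 20308, 24206 and 32560.4 at 100 nM, a fold change of 0.42 ± 0.32. RPL39 had 0.47 ± 0.36, RPS2 0.49 ± 0.63 and RPS3 0.39 ± 0.54. The share of reads in these 78 genes shows how the libraries lay. It was 13.4%, 9.36% and 10.8% at 10 nM, 11.7%, 13.1% and 16.3% at 100 nM, and 19.5%, 17.99% and 17.3% with vehicle. Replicate 1 at 10 nM was above the 2 lower libraries at 100 nM, so the doses overlapped. The difference was 2.50 points, with a two-sided exact permutation p of 0.3 where 0.1 is the smallest possible, and 0.5 after adjustment over the 2 shares. Without replicate 3 at 100 nM it was 1.21 points and the list median 0.20. Against vehicle the list median was -1.24 at 10 nM and -0.82 at 100 nM.

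The 13 protein genes of the mitochondrial genome, which encode core subunits of the respiratory chain, showed the same direction. Of them 12 had a positive fold change, with a median of 0.35. MT-ND4 had 208441, 114868 and 120620.0 at 10 nM and 129405, 171986 and 307351 at 100 nM, a fold change of 0.41 ± 0.64. For MT-ND1 it was 0.47 ± 0.64, for MT-COX2 0.46 ± 0.57 and for MT-COX1 0.09 ± 0.39. MT-ND6 was the 1 member without overlap, with 1629, 1390.1 and 1516 at 10 nM and 1672, 1666 and 1964 at 100 nM. The mitochondrial share of reads was 7.82%, 5.99% and 6.08% at 10 nM and 6.27%, 7.02% and 9.70% at 100 nM. It was 9.93%, 11.4% and 9.24% with vehicle. The difference of 1.03 points had a two-sided exact permutation p of 0.5, unchanged by adjustment over the 2 shares. It rested on replicate 3 at 100 nM, as without that library the difference was 0.0119 points and the list median 0.05.

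Among 55 tested nuclear genes of the respiratory chain 52 had a positive fold change, with a median of 0.36 and 0 without overlap. NDUFA1, a subunit of complex I, had 2629.6, 1259 and 1886 at 10 nM and 2143, 2397 and 3180.4 at 100 nM, a fold change of 0.46 ± 0.33. The cytochrome c oxidase subunits COX6C and COX4I1 had 0.48 ± 0.35 and 0.42 ± 0.55. ATP5F1B, the beta subunit of ATP synthase, overlaps BAZ2A and had 0.09 ± 0.25. Without replicate 3 at 100 nM the list median was 0.19, and without replicate 2 at 10 nM also 0.19. The medians of these 3 lists stayed above 0 under all 16 alternative settings, several of which could not move them, but their size did not hold. Without each library in turn they ran from 0.20 to 0.63 for ribosomal proteins, from 0.05 to 0.57 for the mitochondrial genes and from 0.19 to 0.56 for the nuclear chain. With quantile normalization they were 0.19, 0.071 and 0.34.

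**Figure D3:**
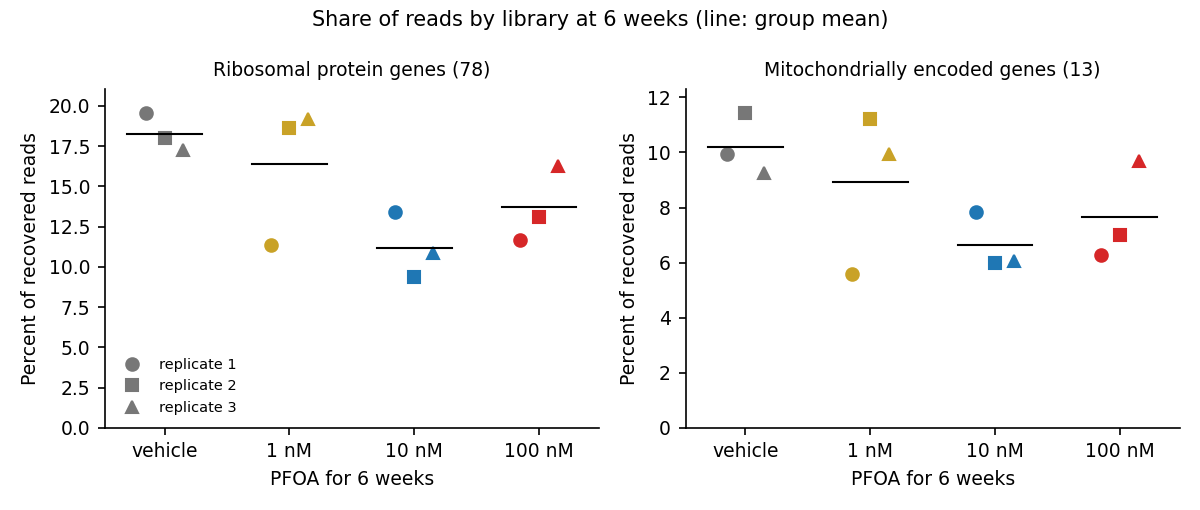
Percent of recovered reads in 78 ribosomal protein genes (left) and 13 mitochondrially encoded genes (right) for each library at 6 weeks, by dose, with symbols for the 3 replicates and a line at the group mean. The 10 and 100 nM libraries overlap in both panels, and replicate 3 at 100 nM holds the highest share of the 6, 16.3% and 9.70%.

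The first principal component of the tested genes held 83.8% of the variance at 6 weeks. Scores were -30.3, -84.3 and -63.9 at 10 nM, and -57.5, -31.8 and -7.74 at 100 nM. The 3 vehicle libraries lay between 18.5 and 114, and the 1 nM libraries at -62.0, 63.8 and 116.5. Replicates of the 1 nM dose thus spanned most of the range of the scores. Among the 6 libraries at 10 and 100 nM the order of the scores was that of the ribosomal protein shares. The scores of the doses overlapped, with a two-sided exact permutation p of 0.3. Fitted with this component as a covariate limma called 0 genes, with 48 at an unadjusted p under 0.05. The component was taken from the same values that were tested, so medians of lists that follow it shrink in that fit by construction. In that fit the list median was 0.13 for ribosomal proteins beside 0.41 without the covariate, 0.049 beside 0.35 for mitochondrially encoded proteins, 0.14 beside 0.36 for the nuclear respiratory chain, and 0.060 beside 0.37 for metallothioneins. It was -0.027 beside -0.16 for mitosis, and that of endoplasmic reticulum chaperones turned from -0.09 to 0.08.

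Immediate early genes encode transcription factors and regulators that cells switch on within minutes of a stimulus, without new protein synthesis. Of 28 tested 22 had a negative fold change, with the lowest median of all lists at -0.19. Against vehicle the median was 1.12 at 10 nM and 0.91 at 100 nM, and for 24 of 28 genes 100 nM was the middle group, as for 83.2% of all genes. NR4A2, an orphan nuclear receptor, had 70.1, 105 and 133 at 10 nM and 71.4, 44.9 and 85.3 at 100 nM, a fold change of -0.61 ± 0.57. KLF10, a zinc finger factor induced by TGF-beta, had 949, 1506 and 1369 at 10 nM and 1071, 808 and 643 at 100 nM, a fold change of -0.60 ± 0.54. In both genes the groups overlapped in 1 or more libraries. The abundant members CCN1, a matrix signalling protein, and IER2 had -0.27 ± 0.44 and -0.02 ± 0.32. Only 2 members were without overlap, both lower at 100 nM. FOSB, an AP-1 subunit, had 1809, 1762 and 1972 at 10 nM and 1639.9, 1564 and 1751 at 100 nM, a fold change of -0.16 ± 0.27. DUSP1, a phosphatase that switches off MAP kinases, had 5104, 4920.5 and 5169 at 10 nM and 4706, 4632 and 3323 at 100 nM, a fold change of -0.28 ± 0.39. Without replicate 3 at 100 nM the list median was -0.07.

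Several single genes had been named earlier for their distance from vehicle at 10 or 100 nM, so they were followed between the doses. FOS, the partner of JUN in AP-1, had 162, 391 and 984 with vehicle, 2371, 2710.1 and 3325 at 10 nM and 2425, 2234 and 1522 at 100 nM. Its fold change between doses was -0.46 ± 0.68. EGR1, a zinc finger factor of the growth response, had 108, 150.1 and 327 with vehicle, 888, 1191 and 1395 at 10 nM and 988, 839.8 and 531 at 100 nM. Its fold change was -0.58 ± 0.65. For both genes all libraries at both doses lay above vehicle, while the doses overlapped.

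RHOB, a small GTPase of endosomes and the cytoskeleton, had 491, 393 and 498 with vehicle, 1030.4, 1108 and 1259 at 10 nM and 1159, 1158 and 1026 at 100 nM. The fold change between doses was -0.02 ± 0.25, and its sign depends on the setting. The Notch target HES1 had -0.18 ± 0.36 between doses and, against vehicle, 1.60 at 10 nM and 1.42 at 100 nM. ID2, an inhibitor of basic helix-loop-helix factors, had -0.27 ± 0.43 between doses and 1.95 at 10 nM and 1.68 at 100 nM against vehicle. The cytokine gene IL6 had 126, 121 and 158 at 10 nM and 116, 101 and 108 at 100 nM, without overlap, and a fold change of -0.31 ± 0.51. CHAC1, which degrades glutathione, had 151, 67.8 and 86.5 at 10 nM and 96.7, 116 and 109 at 100 nM, a fold change of 0.15 ± 0.63. NPFF, a neuropeptide precursor, had 0.01 ± 0.50. The last 2 changed sign under some alternatives.

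Endothelial identity genes encode the junctions, receptors and transcription factors of the vessel lining. Of 29 tested endothelial identity genes 12 had positive and 17 negative fold changes, with a median of -0.08. Those without overlap were CDH5, the cadherin of endothelial junctions, and VWF, the platelet-binding factor, both lower at 100 nM. CDH5 had 2739, 2855 and 3003 at 10 nM and 2727, 2666 and 1877 at 100 nM, a fold change of -0.26 ± 0.37. For VWF the counts were 69.3, 71.5 and 69.7 and 57.6, 66.5 and 66.8, a fold change of -0.14 ± 0.44. The receptor phosphatase PTPRB had -0.40 ± 0.31, the transcription factor FLI1 -0.35 ± 0.33, the TGF-beta co-receptor ENG 0.27 ± 0.57 and the secreted EGFL7 0.55 ± 0.70. The summed level of the 13 marker genes ran from 22039 to 28141 at 10 nM and 24514 to 30479 at 100 nM, and from 36885 to 72759 with vehicle. Such a sum follows its few most abundant members. The list median against vehicle went the other way, at 0.26 at 10 nM and 0.13 at 100 nM. Totals of all normalised values were also larger with vehicle, at 3.14e+07, 2.09e+07 and 1.90e+07.

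In the inflammation and NF-kB list 11 of 28 genes had positive and 17 negative fold changes, with a median of -0.10. Besides IL6, the chemokine CCL2 was lower without overlap, with 1540.4, 1345 and 1377 at 10 nM and 1202, 1305 and 1269 at 100 nM. TRAF1, an adaptor of TNF receptors, was higher without overlap, with 126, 120.1 and 115 and 153, 182 and 155 and a fold change of 0.44 ± 0.48. The neutrophil chemokine CXCL8 had -0.52 ± 0.46, NFKBIZ, which overlaps NXPE3, -0.43 ± 0.47, the NF-kB subunit RELA 0.17 ± 0.34 and the cytokine IL1B -0.03 ± 0.30. In coagulation and fibrinolysis 7 of 21 genes were positive and 14 negative. The protease inhibitor SERPINE2 was without overlap, at 106, 125 and 132 and then 102, 93.1 and 58.4, a fold change of -0.54 ± 0.70. The thrombin receptor F2R had -0.29 ± 0.36, ANXA2, a cofactor of plasmin formation, 0.26 ± 0.35, and SERPIND1, which overlaps PI4KA, 0.31 ± 0.34. Notch and BMP targets were split 11 to 13. HEY1, a Notch target repressor, had 90.9, 92.9 and 98.0 at 10 nM and 58.3, 73.2 and 71.4 at 100 nM without overlap, a fold change of -0.47 ± 0.62. The Notch ligand DLL1, which overlaps FAM120B, had -0.41 ± 0.37 without overlap, the ligand JAG1 -0.41 ± 0.40 and the BMP target ID3 0.27 ± 0.45.

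Of the lipid genes, the targets of PPAR-alpha come first. Of 40 tested PPAR targets and fatty acid oxidation genes 28 had positive and 12 negative fold changes, with a median of 0.09 and 0 without overlap. CPT1B, which moves fatty acids into mitochondria, had 286, 205 and 231 at 10 nM and 247, 310.2 and 407 at 100 nM, a fold change of 0.40 ± 0.39. The oxidation enzymes ACAA2, HADHA and ACADVL had 0.22 ± 0.24, 0.21 ± 0.38 and 0.21 ± 0.52, of which ACADVL overlaps DLG4. Cholesterol synthesis and uptake was split 13 to 14, with a median of -0.0027. FDFT1, which makes squalene, was its 1 gene without overlap, at 4006, 3994 and 3939 and then 4275, 4879 and 4734, a fold change of 0.22 ± 0.30. FDPS had 0.35 ± 0.51, TM7SF2 0.55 ± 0.60 and NSDHL 0.24 ± 0.28, all enzymes of the same pathway. Fatty acid synthesis had 8 positive and 9 negative genes. ACLY, which makes cytosolic acetyl-CoA, had -0.34 ± 0.37 and ACACA, which makes malonyl-CoA, -0.20 ± 0.23. The chain elongation genes ELOVL1 and TECR had 0.26 ± 0.48 and 0.44 ± 0.68, and TECR overlaps DNAJB1.

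Stress programmes had medians within 0.20 of 0, apart from metallothioneins. In the ATF4 amino acid list 14 of 35 genes were positive and 21 negative. ATF4 itself, the transcription factor of that response, had 0.18 ± 0.34, the amino acid transporter subunit SLC3A2 0.17 ± 0.47 and the bZIP factor JDP2 -0.62 ± 0.51. ALDH1L2, a mitochondrial folate enzyme, was without overlap at 166, 232 and 167 and 160.4, 121 and 136, a fold change of -0.42 ± 0.39. NRF2 oxidative stress had 17 positive and 14 negative of 31. AKR1C3, an aldo-keto reductase, was without overlap at 44.2, 42.01 and 39.05 and 45.3, 63.2 and 64.0, a fold change of 0.44 ± 0.38, but it has close paralogs that can share reads. The ferritin chains FTH1 and FTL had 0.41 ± 0.46 and 0.32 ± 0.52, and the exporter ABCC2 -0.37 ± 0.30.

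Endoplasmic reticulum chaperones had 9 positive and 14 negative members of 23. MANF, a secreted stress factor, had 0.38 ± 0.27, CANX -0.42 ± 0.43, CALR 0.07 ± 0.36 and P4HB 0.11 ± 0.39. Heat shock chaperones had 6 positive and 16 negative of 22. DNAJA1, a co-chaperone of HSP70, was without overlap at 2411, 2632 and 2391 and 2366, 2247 and 2047, a fold change of -0.16 ± 0.28. HSPA8 had 0.01 ± 0.26, HSP90AB1 -0.11 ± 0.28, HSPB8 0.32 ± 0.36 and DNAJB4, which overlaps FUBP1, -0.41 ± 0.50. Metallothioneins, small metal-binding proteins, had 3 positive and 2 negative of 5, with a median of 0.37. Without replicate 2 at 10 nM that median was 0.11, and without replicate 3 at 100 nM it was 0.17, so it lay beyond 0.20 only with both libraries. MT2A had 13339, 6473 and 9242 at 10 nM and 9425, 11526 and 15926 at 100 nM, a fold change of 0.37 ± 0.50, while MT1X had 0.47 ± 0.45 and MT1E 0.40 ± 0.43. These genes are near copies of each other.

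The xenobiotic list of AHR, CAR and PXR targets had 6 positive and 9 negative of 15. The aldehyde dehydrogenase ALDH3A1 had 0.75 ± 0.68, the glutathione transferase GSTP1 0.44 ± 0.59 and the quinone reductase NQO1 0.18 ± 0.27. For p53 targets the split was 13 to 15 of 28. CDKN1A, the cell cycle inhibitor p21, had 0.06 ± 0.47, the apoptosis genes BAX and PMAIP1 0.37 ± 0.45 and -0.65 ± 0.66, and TP53I3 0.36 ± 0.38. Hypoxia and glycolysis had 15 positive and 21 negative of 36. Without overlap there were ALDOC, with 0.56 ± 0.54, and ENO2, with 0.20 ± 0.35, both glycolytic enzymes and both higher at 100 nM. GAPDH had 0.48 ± 0.67, ENO1 0.26 ± 0.51 and ANKRD37, a target of hypoxia-inducible factor, 0.54 ± 0.34. Interferon response genes were split 16 to 15 of 31. IFITM1, a membrane restriction factor, was without overlap at 17.3, 16.2 and 13.02 and 24.6, 24.1 and 47.3, a fold change of 0.94 ± 0.60. Its neighbours IFITM2 and IFITM3 had 0.47 ± 0.56 and 0.48 ± 0.59, and the 3 are close copies. IFIT5, which overlaps LIPA, had -0.45 ± 0.32.

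**Figure D4:**
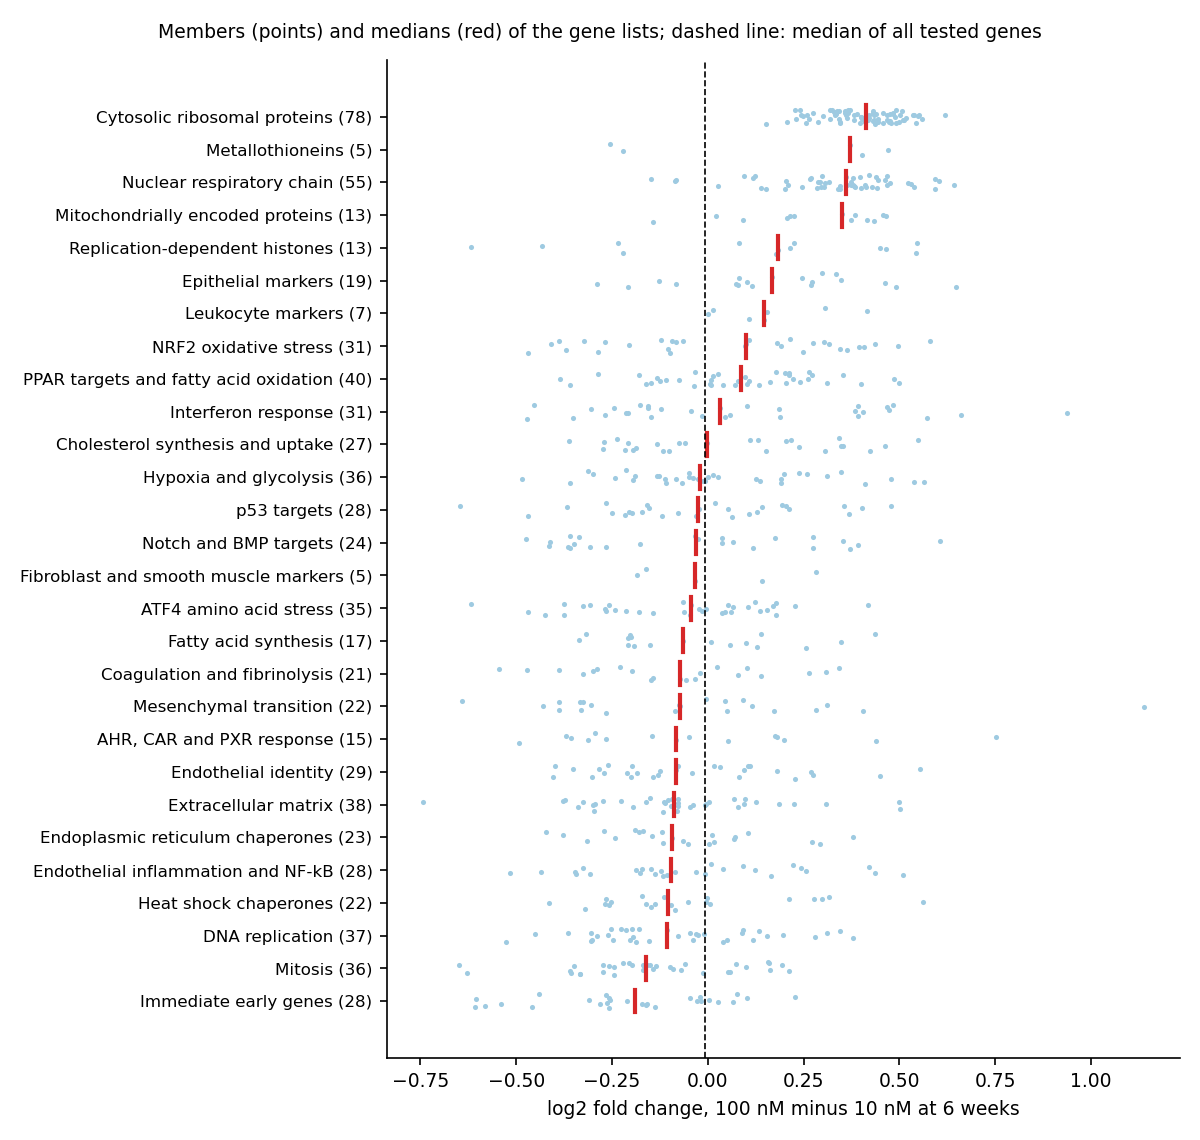
Each blue point is the log2 fold change (100 nM minus 10 nM at 6 weeks, x axis) of 1 tested gene of a list, red bars are the list medians and the dashed line is the median of all tested genes, with the number tested after each list's name. The medians run from -0.19 for immediate early genes to 0.41 for ribosomal proteins, and points of most lists lie on both sides of 0.

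Mitosis and DNA replication genes had mostly negative fold changes at 6 weeks, while replication-dependent histones had mostly positive ones. Of 36 mitosis genes 9 were positive and 27 negative, with a median of -0.16. That median was -0.062 without replicate 2 at 10 nM and -0.083 without replicate 3 at 100 nM. TOP2A, which untangles chromosomes, had 2665, 4591 and 3189 at 10 nM and 3140.2, 2481 and 1357 at 100 nM, a fold change of -0.63 ± 0.50. ANLN, a scaffold of the cleavage furrow, had -0.65 ± 0.59, the spindle assembly factor TPX2 -0.09 ± 0.22 and CDC20, an activator of the anaphase complex, 0.21 ± 0.59. Without overlap were CDK1, the mitotic kinase, which was lower at 100 nM with 1393, 1661 and 1356 and then 1349, 1223 and 1143, and its cyclin CCNB1, which was higher with 2592, 2401 and 2355 and then 2614, 2668 and 3137. Their fold changes were -0.24 ± 0.38 and 0.19 ± 0.25. DNA replication genes were 12 positive and 25 negative of 37, with a median of -0.11 that changed sign in 3 of 16 alternatives. GINS1 and GINS3, subunits of the replicative helicase, were without overlap, with fold changes of -0.19 ± 0.40 and -0.53 ± 0.47. MCM10 had -0.45 ± 0.41, the thymidine kinase TK1 0.31 ± 0.57 and the ribonucleotide reductase subunit RRM2 -0.03 ± 0.23. Of replication-dependent histones 13 of 48 were tested, with 9 positive and 4 negative. H2BC5 had 0.23 ± 0.25, H1-2 0.46 ± 0.56 and H4C14 -0.62 ± 0.71.

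Extracellular matrix genes had 11 positive and 27 negative fold changes of 38. THBS1, an anti-angiogenic matrix protein, had 2419, 4901 and 4581 at 10 nM and 3598, 2135 and 1508 at 100 nM, a fold change of -0.74 ± 0.68. Its groups overlapped, and its SE was close to the size of the difference. FBN1, the microfibril protein, had -0.38 ± 0.30, MMP1 -0.08 ± 0.31 and MMP14 -0.08 ± 0.54, both metalloproteinases. COL6A1 was without overlap at 36.4, 33.9 and 37.5 and 46.0, 47.4 and 40.8, a fold change of 0.31 ± 0.50. The mesenchymal list was split 9 to 13 of 22. S100A4, a calcium-binding protein of motile cells, was without overlap at 3.46, 0.737 and 3.83 and 6.91, 4.99 and 7.42, a fold change of 1.14 ± 0.63 from a few reads. ZEB2, a repressor of epithelial genes, had -0.64 ± 0.58 and vimentin (VIM) -0.00 ± 0.30.

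Markers of other cell types were read beside these lists. Epithelial markers had 15 positive and 4 negative fold changes of 19, with a median of 0.17 that turned to -0.03 with the first component as a covariate. Their summed level over the 8 defining markers ran from 20580 to 40902 at 10 nM, from 28607 to 55574 at 100 nM and from 74313 to 142706 with vehicle. KRT18 had 0.35 ± 0.57, KRT7 0.33 ± 0.63, CLDN4 0.65 ± 0.58 and LSR 0.49 ± 0.50. Their part in the other results was not tested. Of 7 tested genes of the leukocyte list 6 were positive, with 0.41 ± 0.54 for CD74, 0.31 ± 0.42 for CSF1R, 0.15 ± 0.55 for CD68 and 0.11 ± 0.33 for LAPTM5. The defining leukocyte marker PTPRC had at most 1 read in a library at 6 weeks. Fibroblast and smooth muscle genes were split 2 to 3 of 5, with 0.28 ± 0.32 for ACTA2, 0.14 ± 0.40 for THY1 and -0.19 ± 0.41 for RGS5, and the fibroblast gene DCN was at 0 in all 12 libraries.

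At 12 weeks the same doses were measured in separate libraries. There 0 of 12304 genes passed (0.0%) by limma, with 170 (1.38%) at an unadjusted p under 0.05, and 561 (4.56%) did not overlap, 237 (1.93%) higher and 324 (2.63%) lower. Of the alternatives DESeq2 on all 12 libraries called 1 gene, ATP5MF-PTCD1, a readthrough of neighbouring genes. Its adjusted DESeq2 p was 0.0238, with an extreme log2 fold change of 20.3. On only the groups compared DESeq2 called 0 genes. Over 12037 genes tested at both times, which share no library, fold changes correlated with a Pearson r of 0.221 and a Spearman coefficient of 0.249, and 60.1% had the same sign. Genes are not independent replicates, so these describe the tables. The difference between times passed for 0 of 12037 genes (0.0%) by limma, with 90 (0.748%) at an unadjusted p under 0.05.

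The genes with the smallest p at 12 weeks were other genes than at 6 weeks. INSC, an adaptor of spindle orientation, had 50.7, 82.5 and 62.3 at 10 nM and 134, 165 and 160.5 at 100 nM, a fold change of 1.24 ± 0.28 at 12 weeks beside 0.06 at 6 weeks. BCL2A1, an inhibitor of apoptosis, had 1.25 ± 0.36 beside 0.30. The growth factor FGF1 had 1.74 ± 0.55 beside 0.01, and the circadian repressor BHLHE41 1.05 ± 0.28 beside 0.07. KRTAP2-3, a hair keratin-associated protein with near copies, had 2.08 ± 0.50 beside 0.09. On the lower side SELP, the P-selectin that captures leukocytes, had 330.3, 167 and 226.9 at 10 nM and 82.6, 63.8 and 63.4 at 100 nM. Its fold change was -1.73 ± 0.42 at 12 weeks beside 0.22 at 6 weeks. ITGA10, a collagen receptor subunit, had -1.36 ± 0.32 beside -0.06, the secreted protease HTRA1 -1.11 ± 0.29 beside 0.00, UNC5CL -1.11 ± 0.33 beside 0.14 and NDRG4 -1.11 ± 0.33 beside -0.03. None of these 10 genes passed at 12 weeks, and each had an adjusted limma p of 0.9998 there.

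For the difference between times the smallest p values included several of those genes (KRTAP2-3, BHLHE41, HTRA1, ITGA10 and NDRG4). The others were KRTAP4-8, with 1.05 ± 0.35 at 12 weeks beside -0.21 at 6 weeks, the adhesion protein NEGR1, with 0.85 ± 0.35 beside -0.36, and RRM2, with 0.81 ± 0.27 beside -0.03. MAGED1 had -0.64 ± 0.24 beside 0.11, and DEPP1, a FOXO target that overlaps RASSF4, -1.17 ± 0.39 beside 0.27. None passed.

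Lists at 12 weeks had the same sign of their median as at 6 weeks in 16 of 28 cases. Mitosis genes stood on the other side at 12 weeks. There 34 of 36 had a positive fold change and the median was 0.41, beside -0.16 at 6 weeks, and 0 members passed for the difference between times. TOP2A had 0.26 ± 0.57 and TPX2 0.38 ± 0.26 at 12 weeks. DNA replication genes were 25 positive and 12 negative at 12 weeks. The immediate early list was again mostly negative at 12 weeks, 21 of 28, and its median was -0.26. Mitochondrially encoded genes had a median of 0.41, and the nuclear respiratory chain 0.29. Ribosomal protein genes had a median of 0.10. Their share of reads at 12 weeks was 22.2%, 12.8% and 12.1% at 10 nM and 17.2%, 19.01% and 11.02% at 100 nM, so replicates at 12 weeks lay further apart than the doses. That difference was -0.00831 points, with a two-sided exact permutation p of 1.

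**Figure D5:**
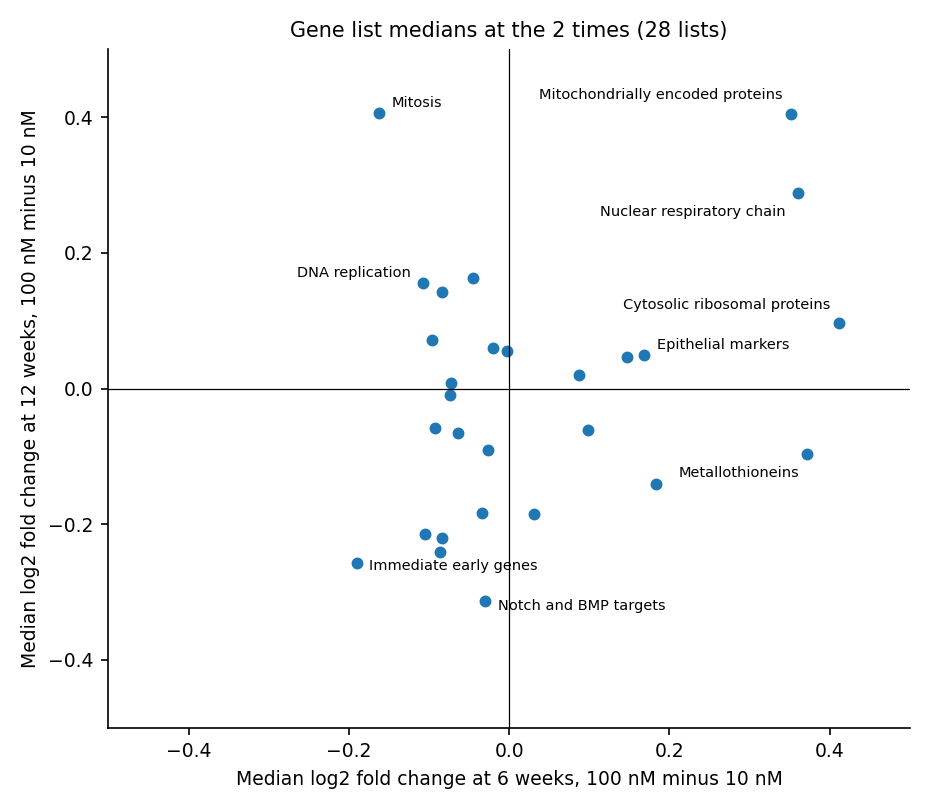
Each point is 1 of 28 gene lists, with its median log2 fold change (100 nM minus 10 nM) at 6 weeks on the x axis and at 12 weeks on the y axis. Mitosis lies at -0.16 and 0.41, immediate early genes at -0.19 and -0.26, and ribosomal proteins at 0.41 and 0.10.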

How the data were processed

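Each deposited value is a signal, a gene's read count divided by the authors with 1 factor for the library, as the whole multiples in each column show. The submitters' processing notes name GRCh38.p14, DESeq2, HISAT and Bowtie2. Which tool counted reads, and whether by strand, is not given in the sources used here. Dividing by the smallest step of a library gave back whole reads, to within 0.01 for 100% of values. The 6 week table has 47137 named entries, of which 18048 hold values, and 1 entry with no gene name, which was left out. The 48 h libraries were not used.

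Doses were compared with limma 3.58.1 (R 4.3.3) and a mean-variance trend, on log2(signal + 1) for genes with a mean of at least 10 over the 12 libraries at 6 weeks, with 1 mean per group. Tests were two-sided, and p-values were adjusted by Benjamini-Hochberg over all 12201 genes at a threshold of 0.05. The log2 scale with a pseudocount of 1 understates changes of low genes. The 12 week table was fitted in the same way, and the difference between times on 24 libraries. edgeR 4.0.16 and DESeq2 1.42.0 were run on recovered reads as alternatives, beside other pseudocounts, filters, normalization, weights, covariates and left-out libraries. The code of the fit was tried on simulated counts, drawn independently for each gene and without the shared differences between replicates seen here. That trial checks the code only, and cannot tell the power or the error rate in these libraries. Replicates differed by more than counting noise in every pair.

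The comparison, the 28 gene lists and the genes named were chosen with earlier results of these data known. Named genes were, up to 12 in each direction at 6 weeks and 5 in each direction at 12 weeks and for the difference between times, those with the smallest p among official symbols with a mean of at least 50 and, except for the difference, no overlap between the doses. Genes with the doses on opposite sides of all vehicle libraries, 4 per list (the 2 most abundant and the 2 with the smallest p) and 10 genes named in an earlier account were added. Some genes that this rule names are not reported here. List members without overlap were named after their values were seen. RefSeq's GRCh38.p14 annotation gave the positions.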

Additional observations from a re-analysis of the deposited data

How the results depend on the processing

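Between 100 and 10 nM at 6 weeks 0 genes were called with pseudocounts of 0.1 and 10, without the filter, with a mean of at least 50, with quantile normalization, on only the groups compared, with the first component as a covariate, by edgeR and by DESeq2. Without each of the 12 libraries in turn, those with vehicle and 1 nM included, the count ran from 0 to 0. The exceptions were library quality weights, with 5119 genes, and weights estimated gene by gene, with 3622. The cause was not tested. The gene by gene weights, edgeR and DESeq2 on only the groups compared, and leaving out libraries with vehicle and 1 nM were chosen after seeing the data. With weights 93 of the named single-gene results came past the threshold, beside 5119 of all 12201 tested genes at 6 weeks. They were among 186 results followed, which also hold the 28 list medians and genes named for 12 weeks and for the difference between times. With the gene by gene weights 77 did, beside 3622 of 12201. Many of these genes were named for a small p in the same data, so the counts say nothing particular about them. At 12 weeks every alternative gave 0 genes except DESeq2 on all 12 libraries, with 1, and the counts without each library ran from 0 to 0. For the difference between times every setting gave 0. The difference in ribosomal protein share ran from 1.21 to 3.60 points, and that in mitochondrial share from 0.0119 to 1.73 points, without each library in turn.

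Same-numbered libraries at 100 and 10 nM had correlations of their deviations of -0.69, -0.11 and -0.20 at 6 weeks, and 0.59, -0.45 and 0.87 at 12 weeks, so the numbers were not taken to pair the samples. With the replicate block 0 genes were called at 6 weeks, at 12 weeks and for the difference between times, with 13 at an unadjusted p under 0.05 at 6 weeks.

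Fold changes of some named genes turned their sign between settings, and the cause was not tested. With quantile normalization they were -0.00725 for CDKN1A, -0.0224 for ENO1, -0.0262 for FTL, -0.0367 for ANXA2, -0.28 for HSPA8, -0.0219 for P4HB, -0.00116 for ATP5F1B, -0.0792 for CALR and -0.021 for NPFF. With library quality weights they were -0.0184 for CSF1R, -0.0817 for ALDH3A1, -0.32 for HSPB8, 0.0158 for ACACA, 0.036 for HSP90AB1, 0.0274 for IL1B, 0.0454 for MMP1, 0.15 for MMP14, 0.0991 for RRM2, 0.0477 for VIM, -0.26 for NPFF and 0.0719 for IER2. With weights estimated gene by gene they were -0.00414 for CSF1R, -0.0507 for ALDH3A1, -0.27 for HSPB8, 0.00888 for ACACA, 0.036 for HSP90AB1, 0.0188 for IL1B, 0.0404 for MMP1, 0.16 for MMP14, 0.0851 for RRM2, 0.0506 for VIM, -0.26 for NPFF and 0.0761 for IER2. With the first component as a covariate they were -0.21 for CDKN1A, -0.10 for ENG, -0.0555 for ENO1, -0.00348 for HADHA, -0.0177 for HSPA8, -0.0038 for ID3, 0.072 for IL1B, -0.14 for ACADVL, -0.083 for KRT7, 0.0586 for RHOB, -0.0689 for MT-COX1, -0.11 for P4HB, -0.0333 for RELA, -0.0518 for ELOVL1, -0.13 for SLC3A2, -0.11 for THY1, -0.062 for TK1, 0.0804 for VIM, -0.0388 for LAPTM5, -0.19 for CHAC1, -0.0912 for CALR, 0.0263 for RGS5, -0.27 for NPFF, -0.00285 for TECR, -0.19 for CD68 and -0.18 for CDC20. Without 1 library in turn the ranges that crossed 0 were -0.12 to 0.0552 for RRM2, -0.0518 to 0.0535 for VIM, -0.14 to 0.0948 for IER2, -0.0686 to 0.19 for CDKN1A, -0.0816 to 0.12 for HSPA8, -0.10 to 0.043 for IL1B, -0.0273 to 0.44 for ATF4, -0.0227 to 0.25 for P4HB, -0.0945 to 0.48 for CHAC1, -0.0628 to 0.22 for CALR, -0.41 to 0.0527 for RGS5, -0.28 to 0.22 for NPFF, -0.0863 to 0.0583 for RHOB, -0.20 to 0.0225 for HSP90AB1, -0.0226 to 0.59 for KRT18, -0.13 to 0.00927 for MMP1 and -0.30 to 0.23 for MMP14.

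With 3 libraries a group and a median SE of 0.39, a 2-fold difference lay outside the 95% interval for 44.5% of genes. Depth was 18393069 to 18880507 reads in the 6 libraries compared. Totals of the normalised values differed more, at 1.61e+07, 1.37e+07 and 1.41e+07 at 10 nM and 1.44e+07, 1.57e+07 and 1.74e+07 at 100 nM. Over the 6 libraries these totals had the same order as the ribosomal protein shares. The part of this scaling in the list medians was not tested.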

Other observations

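Among genes with a mean of at least 50, those furthest apart between the doses were not those with the smallest p. Of 46 genes beyond 2-fold, 8 had such a mean, and for 0 of these 8 were the doses without overlap. They were chosen after their values were seen. Several have a near copy or a readthrough gene with which reads could be shared. Such sharing was not measured, and the cause of the spread of these genes was not tested. EIF3CL, the near copy of the translation initiation factor gene EIF3C, had 4154, 332 and 702 at 10 nM and 1006, 2855 and 9752 at 100 nM. SULT1A3, a sulfotransferase with the near copy SULT1A4, had 902, 1.47 and 531 at 10 nM and 154, 481 and 1387 at 100 nM. P2RY11, a purine receptor gene that forms a readthrough with PPAN, had 145, 70.0 and 8.42 at 10 nM and 42.2, 169 and 378 at 100 nM.

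BMI1, a Polycomb subunit that forms a readthrough with COMMD3, was listed at 0 in all 3 vehicle libraries. It had 32.9, 211 and 154 at 10 nM and 127, 61.5 and 0 at 100 nM. FER1L6, a ferlin family member, had 49.4, 249 and 178 at 10 nM, 134, 69.0 and 24.1 at 100 nM, and 8.08, 2.19 and 12.1 with vehicle. SMCO2 had 682, 127 and 122 at 10 nM and 169.6, 674 and 1612 at 100 nM. EDDM13 had 59.7, 12.5 and 31.4 at 10 nM and 40.7, 52.4 and 98.3 at 100 nM. NBL1, a BMP antagonist, had 19.9, 1.47 and 39.0 at 10 nM and 22.3, 14.1 and 61.2 at 100 nM.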
